A study of Rattus norvegicus with 24 samples.

Results

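Ptges and Ptgs2, the inducible enzymes of prostaglandin E2 synthesis, were followed in cortical brain microvessels of rats with and without acute liver failure. Every probe whose single gene symbol in the platform annotation is Ptges or Ptgs2 was taken, which gave 2 of 14218 genes and 3 of 31099 probes: 2 for Ptges, called its first and second probe here, and 1 for Ptgs2. The genes were selected with the measured differences from Sham in view, so those differences are described below and not tested. The study holds 24 arrays in 3 groups of 8. HAL rats had a portocaval anastomosis, which diverts portal blood past the liver, and a day later ligation of the hepatic artery. HEP rats had the same anastomosis and then removal of the whole liver, and Sham rats had a fictitious surgery in both steps. Tissue was taken several hours after the last operation. The labels give neither strain nor age and do not say that arrays are of different rats, so a p-value here covers only array-to-array spread, which may be technical.

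Prostaglandin E2 is made from arachidonic acid. Ptgs2, known as cyclooxygenase-2, turns the acid into prostaglandin H2, and Ptges, the microsomal prostaglandin E synthase-1, turns that into prostaglandin E2. In brain endothelium both enzymes are known to be induced by circulating cytokines, and the prostaglandin they make there acts on neurons in fever and sickness.

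The proximal promoters of both genes are shown because cytokine-responsive transcription of the pair is known to run through them. They come from RefSeq on the GRCr8 assembly and cover the 250 bases before the annotated start, 5′ to 3′ on the strand of the gene. Capitals mark motif matches.

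Ptges, chr3:34586988-34587237, minus strand: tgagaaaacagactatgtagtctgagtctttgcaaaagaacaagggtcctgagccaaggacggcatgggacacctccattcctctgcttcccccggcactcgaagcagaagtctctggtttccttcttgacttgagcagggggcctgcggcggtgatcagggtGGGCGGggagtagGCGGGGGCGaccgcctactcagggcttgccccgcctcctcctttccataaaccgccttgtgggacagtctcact
Ptgs2, chr13:64713813-64714062, plus strand: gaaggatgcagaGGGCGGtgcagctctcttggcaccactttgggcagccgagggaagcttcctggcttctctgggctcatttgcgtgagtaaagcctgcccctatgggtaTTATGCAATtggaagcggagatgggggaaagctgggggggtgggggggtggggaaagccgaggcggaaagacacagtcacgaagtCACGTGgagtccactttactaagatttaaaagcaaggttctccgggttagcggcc

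Both windows were searched on both strands for 8 motifs. The Ptges promoter held a GC box (GGGCGG) from -87 to -82 and an Egr1-type site (GCGGGGGCG) from -74 to -66, counted from the start. The Ptgs2 promoter held a GC box from -238 to -233, a C/EBP site (TTNNGNAAT, here TTATGCAAT) from -140 to -132 and an E-box (CACGTG) from -55 to -50. The cAMP response element TGACGTCA, the AP-1 site TGANTCA, an NF-kB site and TATAAA matched neither window. Among 33469 rat promoter windows of this length, 30.5% held the GC box, 2.45% the Egr1-type site, 10.9% the C/EBP site and 5.59% the E-box. A match describes letters only.

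The deposited table limits what can be read. Each value is the decimal part of a log2 signal, without its whole number and without leading or trailing zeros. A full cell has 9 digits below a log2 signal of 10 and 8 digits from 10 on. A probe with both kinds of cell was taken to lie near 10 and was read as 9 or 10 plus its decimals. A signal with another whole number would be misread there by whole log2 steps. Of all probes, 2527 (8.13%) lay near 10, 1933 (6.22%) had no cell of 9 digits and lay at or above 10, and 26639 (85.7%) lay below 10 on most arrays. In the last 2 classes only decimals can be compared, so a difference is known up to whole log2 steps. The share of 9-digit cells per array ran from 72.8% to 74.1%.

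Ptges read about 2-fold higher in both liver failure groups than in Sham, with the whole number taken as 9 or 10. On the first probe the 7 Sham arrays that could be read gave log2 signals of 9.41, 9.52, 9.62, 10.34, 9.63, 9.69 and 9.25. The 7 HAL readings were 10.48, 10.88, 10.77, 10.97, 10.49, 10.94 and 10.84. The 6 HEP readings were 10.12, 10.89, 10.63, 10.45, 10.86 and 10.95. All HAL readings lay above all Sham readings, while the lowest HEP reading lay below the highest Sham reading, that of replicate 5. With 9 as its whole number, the reading of Sham replicate 5 would lie among the other Sham readings. The share of probes near 10 whose HAL and Sham readings separate in this way was not counted. The means were 9.64 ± 0.34 (SD, n = 7) in Sham, 10.77 ± 0.20 (SD, n = 7) in HAL and 10.65 ± 0.32 (SD, n = 6) in HEP. The log2 difference from Sham was 1.13 (SE 0.16, 2.19-fold) in HAL and 1.01 (SE 0.17, 2.02-fold) in HEP. Both were the largest positive differences among 2526 probes near 10, where the median difference was -0.03 in HAL and -0.004 in HEP. In that class 3.72% of probes passed an adjusted p of 0.05 for HAL minus Sham (limma, Benjamini-Hochberg), and 2.18% for HEP minus Sham. Ptges was selected on these contrasts, so nothing is read from its place in them.

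**Figure D1:**
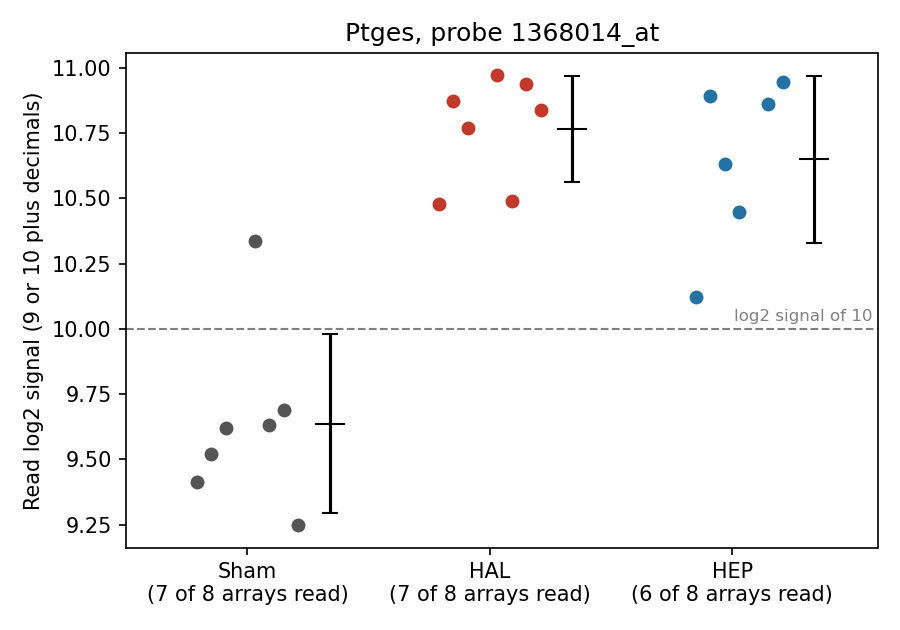
The first Ptges probe by group, as the log2 signal read from the decimals, with each array as a point and the mean ± SD beside it. Sham arrays lie below 10 except 1 at 10.34, and all HAL and HEP readings lie above 10.

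The digit counts behind these readings need no choice of whole number. The first Ptges probe had 9 digits, and so a signal below 10, on 6 of 8 arrays in Sham and on 0 of 8 in each liver failure group. In all, 4 of 31099 probes had at least 6 such cells in Sham and 0 in both other groups. The others were Depp1, Adamts9 and a probe with no symbol, singled out after their values were seen. The cut equals the counts of the Ptges probe itself, which was selected for its difference from Sham. The rarity of the pattern is therefore no support. The reverse pattern was found for 25 probes. A cell can also be short because a zero was lost: in probes below 10, 17.9% to 18.1% of cells in each group had fewer than 9 digits. With every 9-digit cell at 9 and every short HAL and HEP cell at 10, the difference lay between 0.96 and 1.31 in HAL. In HEP it then lay between 0.78 and 1.18. If every short cell could equally lie at 9, the limits widened to -0.64 to 1.31 and -0.66 to 1.18. Only 9 and 10 were allowed as whole numbers, so these limits do not cover a signal outside that range.

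**Figure D2:**
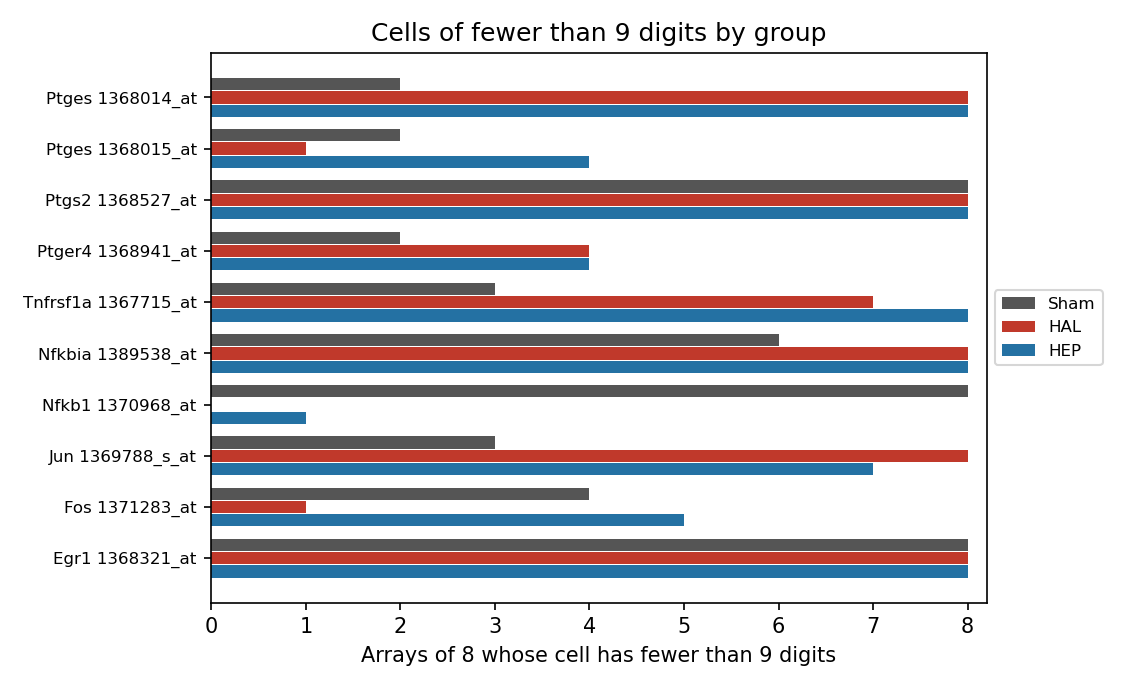
Number of arrays out of 8 in each group whose cell has fewer than 9 digits, for the Ptges and Ptgs2 probes and selected pathway probes; near 10, a short cell is read as a signal at or above 10. The first Ptges probe has 2 such cells in Sham and 8 in HAL and in HEP, while Nfkb1 runs the other way with 8, 0 and 1.

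The second Ptges probe lay below 10, where only decimals can be compared. Its decimals ran from 0.22 through a median of 0.39 to 0.71 in Sham, from 0.37 through 0.50 to 0.96 in HAL, and from 0.20 through 0.64 to 0.92 in HEP. The decimals of the groups overlapped, which does not tell whether the signals did. The means were 0.45 ± 0.20 (SD, n = 6), 0.58 ± 0.22 (SD, n = 7) and 0.60 ± 0.32 (SD, n = 4), and the differences from Sham were 0.13 (SE 0.12) in HAL and 0.15 (SE 0.13) in HEP. These hold only up to whole log2 steps, so a difference as large as that of the first probe cannot be told apart from a small one here. In this class 0.0913% of probes passed for HAL minus Sham and 0% for HEP minus Sham (1673 at an unadjusted p under 0.05, limma). Only the first Ptges probe gives a log2 level.

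Ptgs2 lay at or above 10 on all 24 arrays, with no cell of 9 digits in any group. Its decimals in Sham ran from 0.23 through a median of 0.56 to 0.84, with a mean of 0.54 ± 0.24 (SD, n = 6). In HAL they ran from 0.31 through 0.49 to 0.80, with a mean of 0.49 ± 0.16 (SD, n = 7). In HEP they ran from 0.46 through 0.90 to 0.98, with a mean of 0.79 ± 0.22 (SD, n = 7). Of the 7 HEP readings, 5 lay above every HAL reading and the other two among them. The decimals differed from Sham by -0.05 in HAL and 0.26 in HEP. They were so spread over the unit circle (resultant length 0.22, against a minimum of 0.3) that the probe was left out of the fit over all probes, in which 0.719% of probes at or above 10 passed for HAL minus Sham and 1.15% for HEP minus Sham.

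**Figure D3:**
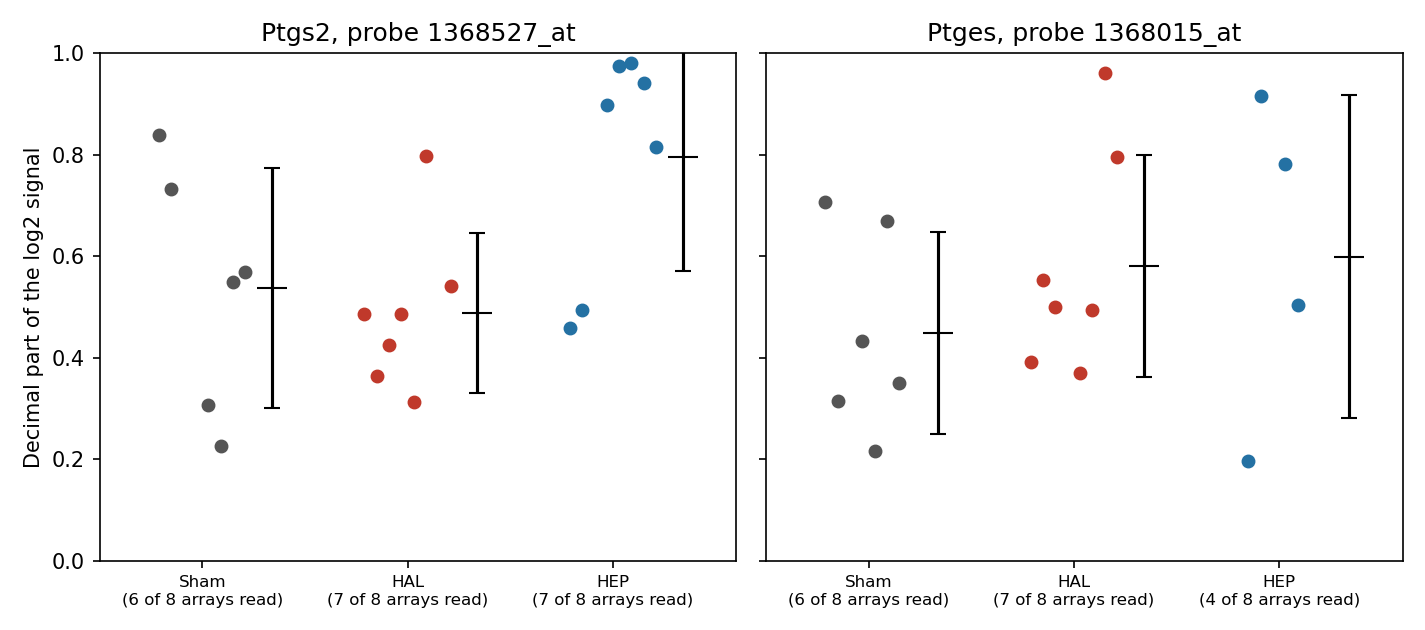
Decimal part of the log2 signal for Ptgs2 (left) and the second Ptges probe (right), with each array as a point and the mean ± SD beside it; the whole number is not known. For Ptgs2, 5 of 7 HEP arrays lie between 0.82 and 0.98, and the decimals of the Ptges groups overlap.

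The liver failure models were compared directly with a two-sided exact permutation test, adjusted over the 3 probes. Both differences from Sham were known when the genes were chosen, and HEP minus HAL follows from them. The p-values and intervals below take no account of that choice. The first Ptges probe differed by -0.12 between HEP and HAL (95% interval -0.43 to 0.19, adjusted p = 0.678, exact permutation test). The second Ptges probe differed by 0.019 up to whole log2 steps (-0.35 to 0.40, adjusted p = 0.906, exact permutation test). The Ptgs2 decimals were 0.31 higher in HEP (0.07 to 0.53, adjusted p = 0.042, exact permutation test). This is the probe that was too spread for the fit over all probes, so its value depends on how the circle of decimals is unrolled. The circular means of the groups differed by 0.42. By decimals alone, Ptgs2 could equally be 0.69 lower. The adjusted p was 0.0594 with arrays centred on their medians, and a circular statistic that assumes no direction gave 0.124 (exact permutation tests). Leaving out 1 array ended the call in 11 of 16 cases, with adjusted p from 0.0175 to 0.0997 (exact permutation tests); these were HAL replicates 1, 2, 3, 4, 5 and 8 and HEP replicates 4, 5, 6, 7 and 8. Across all probes, 0% passed for HEP minus HAL in each class (limma), with 216 near 10, 124 at or above 10 and 1292 below 10 at an unadjusted p under 0.05.

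Other genes of the pathway were taken from lists of 83 genes, of which 79 had a probe and 63 had at least 1 of 87 readable probes. For HAL minus Sham 1 of the 87 probes passed, for HEP minus Sham 0, and for HEP minus HAL 0 (limma, Benjamini-Hochberg within each class). At an unadjusted p under 0.05 the counts were 15, 12 and 11, or 17.2%, 13.8% and 12.6%; over all probes near 10 they were 17.1%, 14.5% and 8.55%, over those at or above 10 18.4%, 15.3% and 8.92%, and over those below 10 12.7%, 8.98% and 6.94%. Of the 87 probes 15 lay near 10, 9 at or above 10 and 63 below 10. The median difference over the lists was 0.07 in HAL and 0.02 in HEP. Most of these probes were compared by decimals, which lose whole log2 steps, so a probe there that did not pass is no sign of an unchanged gene.

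Upstream and at the synthases no probe passed. Pla2g6, a phospholipase A2, had 3 probes whose decimals differed from Sham by 0.24, 0.31 and 0.29 in HEP (smallest adjusted p = 0.298, limma). Ptgs1, the constitutive cyclooxygenase, differed by 0.12 in HAL (adjusted p = 0.714, limma). Ptges2, a membrane-associated prostaglandin E synthase, differed by 0.23 in HAL (SE 0.07, adjusted p = 0.162, limma). Ptges3, the cytosolic synthase and Hsp90 co-chaperone, lay at or above 10 on every array and differed by -0.06 in HAL and 0.03 in HEP. Tbxas1, the thromboxane synthase, differed by 0.32 in HAL (adjusted p = 0.171, limma).

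Export, receptors and neighbouring enzymes gave no call either. Abcc4, an exporter of prostaglandins, lay at or above 10 throughout, and its decimals were -0.26 from HAL to HEP (adjusted p = 0.393, limma). Among the prostaglandin E2 receptors, Ptger4 lay near 10 and differed by 0.02 in HAL and 0.14 in HEP, and Ptger2 decimals differed by 0.17 in HAL (adjusted p = 0.324, limma). Alox5ap, which presents arachidonate to 5-lipoxygenase, differed by 0.31 in HEP (adjusted p = 0.343, limma).

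Of the cytokine signals that induce the pair, the ligands Il1b, Il1a, Tnf and Il6 lay below 10 and none passed. Of the 3 probes of the interleukin-1 receptor Il1r1, 1 lay at or above 10 on all arrays and the other two lay below 10. Tnfrsf1a, the main tumour necrosis factor receptor, read 10.01 ± 0.25 (SD, n = 8) in Sham, 10.41 ± 0.29 (SD, n = 8) in HAL and 10.48 ± 0.21 (SD, n = 7) in HEP. Its differences from Sham of 0.40 and 0.47 did not pass (adjusted p = 0.111 and 0.0848, limma). Nfkbia, the inhibitor that NF-kB itself induces, differed by 0.38 in HAL and 0.45 in HEP (adjusted p = 0.34 and 0.233, limma). Traf6, an adaptor of interleukin-1 signalling, had its smallest p between the models, with 1 probe below 10 differing by 0.37 (adjusted p = 0.444, limma) and its probe near 10 by -0.11. From Sham, the Traf6 probe near 10 differed by -0.30 in HAL and -0.40 in HEP (adjusted p = 0.412 and 0.324, limma). The decimals of that probe below 10 differed from Sham by -0.19 and 0.19.

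Among the transcription factors, Jun, a subunit of AP-1, was the list member that passed. The probe that passed ran from 9.78 through a median of 9.88 to 10.25 in Sham, from 10.61 through 10.80 to 10.996 in HAL, and from 9.77 through 10.35 to 10.84 in HEP. The HAL and Sham readings did not overlap, but the share of probes near 10 for which this holds was not counted. The separation rests in part on the reading rule, which sets the whole number from the digit count. By that rule 1 of 6 Sham readings and 8 of 8 HAL readings lay at or above 10. Jun read 0.88 higher in HAL (SE 0.15, adjusted p = 0.00290, limma), at 9.92 ± 0.17 (SD, n = 6) in Sham and 10.79 ± 0.11 (SD, n = 8) in HAL. The lists were chosen with earlier results of these data known, and the p-value takes no account of that choice. In HEP it read 10.33 ± 0.45 (SD, n = 4), a difference from Sham of 0.41 (adjusted p = 0.264, limma). Another Jun probe near 10 differed by 0.29 in HAL (SE 0.16, adjusted p = 0.377, limma). The decimals of a Jun probe below 10 differed by 0.18 in HAL (adjusted p = 0.562, limma). Fos, from the same list, had a probe near 10 that read 0.52 lower in HAL (adjusted p = 0.280, limma). The decimals of its probe below 10 differed by 0.07. Cebpb, near 10, read 0.41 lower in HAL (adjusted p = 0.525, limma). Of the 19 readable probes of this list, 11 had a positive difference in HAL, for most up to whole log2 steps. The glucocorticoid receptor Nr3c1, whose activation is known to repress Ptgs2, had 2 readable probes that differed in sign. One, at or above 10, had decimals differing by 0.26 in HAL and 0.28 in HEP (adjusted p = 0.0590 and 0.0770, limma), and the other, below 10, by -0.08 and -0.04, all up to whole log2 steps.

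Nfkb1, which encodes the p105 precursor of NF-kB p50, had 9-digit cells on no Sham array, on 8 of 8 in HAL and on 7 of 8 in HEP. Its 15 such cells put it just past the limit of 14 for the class near 10. With the limit moved to 16, an alternative chosen after these counts were seen, it read 10.40 ± 0.28 (SD, n = 6) in Sham, 9.51 ± 0.26 (SD, n = 8) in HAL and 9.73 ± 0.28 (SD, n = 8) in HEP. The differences from Sham were -0.89 in HAL and -0.66 in HEP. They are a description with no test, since the probe was named for its digit counts and the limit was moved to admit it.

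**Figure D4:**
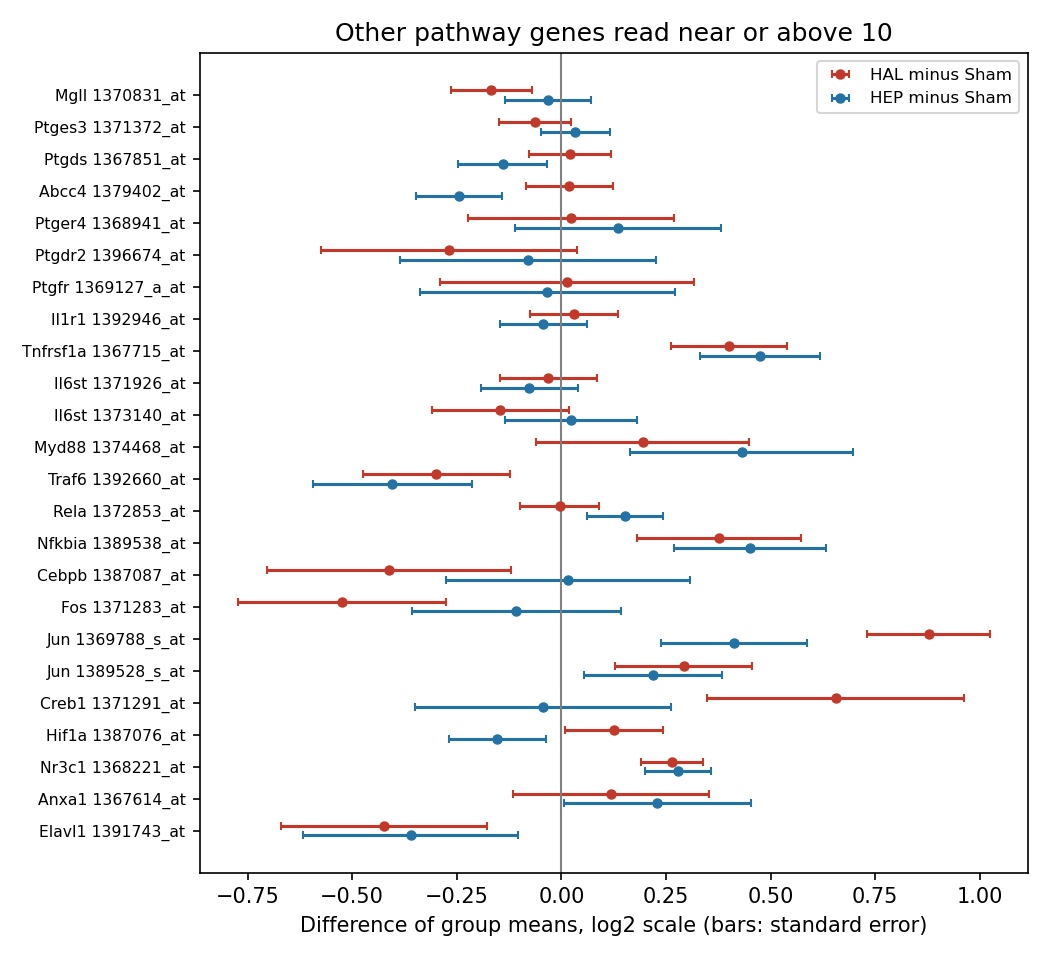
Differences from Sham on the log2 scale for pathway probes read near or at or above 10, with bars of 1 standard error; for probes at or above 10 the difference holds up to whole log2 steps. The passing Jun probe stands furthest to the right in HAL, at 0.88, and Ptges3 and Rela lie near 0 in HAL.

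The probes most like the first Ptges probe across arrays were sought among 872 near-10 probes sharing at least 18 readings. They were Higd1a (r = 0.80), Spsb1 (r = 0.71), Ehbp1l1 (r = 0.70), Adamts9 (r = 0.70) and Atp6v1b2 (r = 0.70), over 18 or 19 arrays. With group means removed the correlations were 0.58 for Higd1a, 0.23 for Spsb1, 0.45 for Ehbp1l1, -0.10 for Adamts9 and 0.17 for Atp6v1b2. For Ptgs2, among 480 probes, they were Iqgap1 (r = 0.76), Nrep (r = 0.71) and Dnajc10 (r = 0.71). The Ptgs2 correlations are of decimals, for a probe whose decimals were too spread for the fit over all probes. They depend on how the circle of decimals is unrolled, so they do not show that the signals vary together. The correlations for both genes are descriptions over arrays that share a normalization.

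The tissue label was set against marker genes. A marker was counted where at least 1 of its probes lay at or above 10 on every array, although other probes of it could lie below, as for Flt1 and Kdr. By that count 9 of 9 endothelial markers with a probe lay at or above 10, as did 3 of 7 pericyte, 2 of 4 smooth muscle, 2 of 5 astrocyte, 1 of 4 oligodendrocyte and 3 of 5 fibroblast markers. No macrophage and microglia (0 of 8), neutrophil and monocyte (0 of 4), neuron (0 of 7), choroid plexus (0 of 3) or hepatocyte (0 of 4) marker did. The share of short cells among neutrophil and monocyte markers was 6.25% in Sham, 21.9% in HAL and 18.8% in HEP. Among macrophage and microglia markers it was 17.0%, 23.9% and 20.5%. Apart from a Lyve1 probe near 10, all probes of these markers lay below 10, where a cell can be short because a zero was lost. Over all probes below 10, 17.9% to 18.1% of cells in each group were short. The shares are therefore no measure of how many such leukocytes were present. The part of these cell types in the Ptges difference was not tested. Col3a1, a fibroblast collagen, read 0.87 lower in HAL (adjusted p = 0.0312, limma), the 1 call among 4 readable fibroblast probes. Over all probes near 10, 3.72% passed for HAL minus Sham. Col1a2 differed there by -0.83, and the decimals of the Col1a1 probes by 0.007 and 0.17. A probe of Slc2a1, the endothelial glucose transporter, was 0.32 higher in HEP up to whole log2 steps (adjusted p = 0.0487, limma). Over all probes at or above 10, 1.15% passed for HEP minus Sham. Leaving out 1 array moved those 16 calls to between 3 and 56, and the Slc2a1 call was not followed through this. It was the 1 call among 6 readable endothelial probes. Of the others, Cldn5, Flt1 and Kdr differed in HEP by 0.04, 0.01 and 0.04, Tek by -0.19 and Abcb1a by -0.14. In whole microvessels, fewer cells of a type and less RNA per cell cannot be told apart.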

How the data were processed

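Per the submitters' processing notes, the authors normalized the arrays with RMA, which gives log2 signals; the deposited table holds their decimals as whole numbers, in effect scores with no whole part. The labelling kit named in the labels (WT Plus) belongs to another array type than the 3′ probe names, which was left unresolved. No depth exists for arrays; their number limits the precision.

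Probes with 1 to 14 cells of 9 digits were read as 9 or 10 plus decimals, shorter cells being missing, with at least 2 readings a group. Other probes were compared by decimals turned around their circular mean, with at least 4 readings a group and a resultant length of at least 0.3. limma 3.58.1 in R 4.3.3 fitted group means over 24 arrays, with Benjamini-Hochberg adjustment within each class. Names came from the platform annotation: 20832 probes had 1 symbol, 436 several and 9831 none. All members and lists were chosen with earlier results of these data known. Named genes were the 3 member probes, list members that passed, and otherwise the member of each list with the smallest p. Ptges3, Ptger4, Il1b, Il1a, Tnf, Il6, Il1r1, Tnfrsf1a, Nfkbia, Fos, Cebpb, Nr3c1, Nfkb1 and Depp1 were added after their values were seen. So were the markers Flt1, Kdr, Cldn5, Tek, Abcb1a, Col1a1 and Col1a2.

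The reading and the fit were tested on simulated data for HAL minus Sham. Near 10 they called only part of the changes made. By decimals they called none, at a fixed spread or at spreads drawn from the real probes near 10, so a probe there that did not pass says little. Near 10, a change of 1.0 was read at a median of 0.57 with the fixed spread and 0.48 with the drawn spreads. With the fixed spread 1 such change was called in the wrong direction. A size read near 10 can thus differ from the true log2 difference. The drawn spreads were added after the first outcome was seen. An assumed mixed spread, also tried then, let some changes be called by decimals; it rested on no measurement and was dropped.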

Additional observations from a re-analysis of the deposited data

Results flagged for a closer look

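The Ptges reading of Sham replicate 5 on its first probe, a log2 signal of 10.3368, stood apart from the other 6 Sham readings by more than Dixon's criterion allows; chance flags about 1 in 20 groups, and 9 groups were looked at. Its cell has 8 digits, while the other 6 have 9.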

How the results depend on the processing

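The difference of the first Ptges probe from Sham, on which it was selected, was 0.99 in HAL and 0.81 in HEP with short cells read at 10, and could reach -0.64 and -0.66 with any short cell at 9; many other alternatives could not move it. Its HEP minus HAL value ran from -0.18 to -0.01. The passing Jun probe passed in all 29 alternatives that include it (adjusted p 0.000684 to 0.0185, limma). With 1 probe per gene, the other Jun probe near 10 stands for the gene. That probe did not pass in the main fit (adjusted p = 0.377, limma). Ptgs2 in HEP minus HAL was 0.274 with centred arrays, 0.272 with the replicate block (adjusted p = 0.188, exact permutation test), 0.423 by the circular statistic added later, and 0.276 to 0.363 without 1 array. The second Ptges probe turned to -0.0209 with short cells read and ran from -0.087 to 0.153 without 1 array. Same-numbered arrays did not pair (24 pairs, r from -0.083 to 0.13, 3 above 0.1). Calls near 10 numbered 94 in HAL minus Sham, but 56 with 1 to 16 cells, 59 with the replicate block and 63 to 120 without 1 array; 55 in HEP minus Sham, but 24, 36 and 29 to 137; and 0 in HEP minus HAL, but 1 with the block. At or above 10, the 10 calls of HAL minus Sham became 23 with centred arrays, 5 with 1 probe per gene, 23 with no minimum resultant length, 2 at 0.5, 24 at the widest gap, 30 with short cells read, 5 with the block and 4 to 47 without 1 array. The 16 of HEP minus Sham became 7 at 0.5, 10 with the block and 3 to 56 without 1 array, and the 0 of HEP minus HAL became 1 centred, 3 at the widest gap, 1 with the block and 0 to 4. Below 10, the 17 of HAL minus Sham became 8 with 1 probe per gene, 28 with no minimum, 3 at 0.5, 2 with the block and 0 to 27; the 0 of HEP minus Sham became 1 centred, 1 with 1 probe per gene, 9 with no minimum and 0 to 43; and the 0 of HEP minus HAL became 1 at the widest gap. The cause was not tested.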
